A study of Mus musculus with 2 samples.

Results

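Tyrosine and dual-specificity phosphatases were compared between marginal zone and follicular B cells of the mouse spleen. The set held every gene that the array annotation named alone for a probe set and whose symbol began with Ptpn or Dusp and a digit, with Ptpr, or with Ptp4a. It had 54 genes with 98 probe sets, out of 12393 annotated genes. By symbol, 19 belonged to the receptor class (Ptpr), 15 to the cytosolic class (Ptpn), 2 to the prenylated Ptp4a class and 18 to the dual-specificity class (Dusp). The symbol rule also took in Ptprcap, which encodes a protein bound to CD45 and is itself no phosphatase.

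Marginal zone B cells lie beside the marginal sinus and respond early to antigens in the blood, whereas follicular B cells recirculate and make up most of the splenic pool. Both populations came from wild-type female C57BL/6 mice, 3 per preparation, and mouse age is not given. B220 bead enrichment was followed by sorting of CD21-high, CD23-intermediate cells as marginal zone and of CD21-intermediate, CD23-high cells as follicular, and the sorted cells were pooled before lysis. About 100 ng of total RNA per population was amplified in a 2-cycle labelling assay and hybridised to 1 array each. With a single array on each side there is no replicate error, so differences are described by size and none is tested.

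Tyrosine phosphorylation carries the signal of the B cell antigen receptor, and phosphatases set its threshold and its end. The receptor-type enzyme CD45, encoded by Ptprc, removes the inhibitory phosphate from Src family kinases, while cytosolic enzymes such as the products of Ptpn6 and Ptpn22 remove activating phosphates from these kinases and their substrates. The typical dual-specificity enzymes act later: they strip phosphate from both the threonine and the tyrosine of the activation loop of MAP kinases, and several are themselves induced by the pathway they switch off. The Ptp4a enzymes are small, prenylated phosphatases that bind magnesium transporters of the CNNM family.

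Signals are scaled MAS5 intensities. The median over both arrays, a signal of 12.7, served as a floor; lower values were raised to it for ratios, and a gene was counted as measured when a probe set exceeded the floor on at least 1 array. Each gene is described by its brightest measured probe set, and signals of different probe sets are not compared as transcript levels. Of the 54 genes, 35 (64.8%) were measured, against 7695 of the 12393 annotated genes (62.1%). In bulk RNA of sorted cells, fewer cells with a transcript and less transcript per cell cannot be told apart.

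The largest differences lay in the cytosolic class, with Ptpn23 and Ptpn22 higher in marginal zone cells, and the one difference past 2-fold the other way was in Dusp6. The promoters of these 3 genes are shown because the populations differ most there, and that of Ptpn6 because one of its probe sets also differed past 2-fold. They are RefSeq sequences of GRCm38.p6, from 250 bases before to 50 bases after the gene start, printed 5′ to 3′. Ptpn22 has 2 listed starts, of which the first is given. Capitals mark matches, on either strand, to any of 6 short motifs that are spelled out after the sequences.
Ptpn22 (chr3:103859545-103859844, plus strand): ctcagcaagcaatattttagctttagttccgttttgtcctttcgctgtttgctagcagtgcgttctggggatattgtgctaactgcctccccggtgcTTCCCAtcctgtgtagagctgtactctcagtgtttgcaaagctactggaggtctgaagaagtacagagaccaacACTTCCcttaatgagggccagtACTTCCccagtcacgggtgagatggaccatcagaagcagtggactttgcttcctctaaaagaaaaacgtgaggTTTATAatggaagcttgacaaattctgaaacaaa
Ptpn23 (chr9:110408161-110408460, minus strand): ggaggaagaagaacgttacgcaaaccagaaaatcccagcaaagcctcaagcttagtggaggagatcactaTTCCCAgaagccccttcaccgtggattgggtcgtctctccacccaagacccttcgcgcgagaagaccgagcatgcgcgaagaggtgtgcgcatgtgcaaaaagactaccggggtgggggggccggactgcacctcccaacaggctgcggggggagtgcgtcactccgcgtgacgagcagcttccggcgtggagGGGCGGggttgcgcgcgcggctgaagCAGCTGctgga
Dusp6 (chr10:99262981-99263280, plus strand): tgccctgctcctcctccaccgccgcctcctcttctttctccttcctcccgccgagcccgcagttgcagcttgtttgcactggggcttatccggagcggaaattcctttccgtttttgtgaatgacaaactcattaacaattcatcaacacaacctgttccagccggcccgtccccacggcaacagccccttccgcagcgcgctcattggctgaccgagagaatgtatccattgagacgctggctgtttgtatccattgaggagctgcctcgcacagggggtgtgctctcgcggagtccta
Ptpn6 (chr6:124738660-124738959, minus strand): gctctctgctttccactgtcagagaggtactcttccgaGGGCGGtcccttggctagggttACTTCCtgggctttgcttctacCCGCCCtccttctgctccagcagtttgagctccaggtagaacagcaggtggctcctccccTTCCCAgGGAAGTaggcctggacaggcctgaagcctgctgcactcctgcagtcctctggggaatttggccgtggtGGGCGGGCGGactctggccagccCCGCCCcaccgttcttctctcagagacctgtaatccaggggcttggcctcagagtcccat

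The motifs were searched in all 32851 promoters of this length, where most are frequent. The Ets core, GGAAGT, was held by 23.8% of promoters. The E-box searched, CAGCTG, was held by 16.3% of promoters. The RBPJ core, TGGGAA, was held by 25.6% of promoters. The GC box, GGGCGG, was held by 35.7% of promoters. The cyclic AMP response element, TGACGTCA, was held by 1.79% of promoters. The TATA motif, TATAAA, was held by 13.6% of promoters. The RBPJ core, the recognition letters of the DNA-binding partner of Notch, occurred once in the windows of Ptpn22, Ptpn23 and Ptpn6. The Ets core occurred 2 times in the Ptpn22 window and 2 times in the Ptpn6 window, where one copy lies 1 base after the RBPJ letters. The Ptpn6 window held 5 GC box matches, a pair of which overlap, and the Ptpn23 window held 1 GC box and 1 E-box. The Ptpn22 window held 1 TATA match. The Dusp6 window held 0 matches to any of the 6 motifs, which says only that these letters are not in these 300 bases. A match is a description of the sequence and shows no binding.

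At the floor used, 32 of 35 measured phosphatase genes did not pass 2-fold, and 3 of these (Ptprm, Ptpn14 and Ptpn5) are lower bounds, since 1 population lay below the floor. Of 35 genes, 2 (5.71%) passed 2-fold toward marginal zone cells, against 4.39% of all measured genes, and 1 (2.86%) passed 2-fold toward follicular cells, against 4.86%. At 1.5-fold the counts were 6 (17.1%) higher in marginal zone cells, against 13.6% of all measured genes, and 4 (11.4%) higher in follicular cells, against 15.8%. All of these shares were near those of all measured genes. The median log2 ratio (marginal zone over follicular) was -0.08 for the set and -0.03 for all measured genes, and the median absolute log2 ratio was 0.31 for the set and 0.35 for all measured genes.

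The class medians lay on both sides of 0. The cytosolic class had a median log2 ratio of 0.27 over 11 measured genes, 8 of them higher in marginal zone cells. Among all measured genes, marginal zone cells had the higher value for 47.8% and follicular cells for 52.2%. The 8 include Ptpn14, and the other 3 include Ptpn5, each measured only through the population where it was higher. The receptor class had a median of -0.003 over 9 measured genes, with 4 higher in marginal zone and 5 higher in follicular cells, and this median was above 0 (0.02 to 0.05) under 3 of the 4 other scalings. The dual-specificity class had a median of -0.16 over 13 measured genes, 9 of them higher in follicular cells. Both Ptp4a genes of the set, Ptp4a2 and Ptp4a3, were higher in follicular cells, at a median of -0.65. Ptp4a1 was not in the set. Whether the classes differ cannot be tested with 1 array per population.

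**Figure D1:**
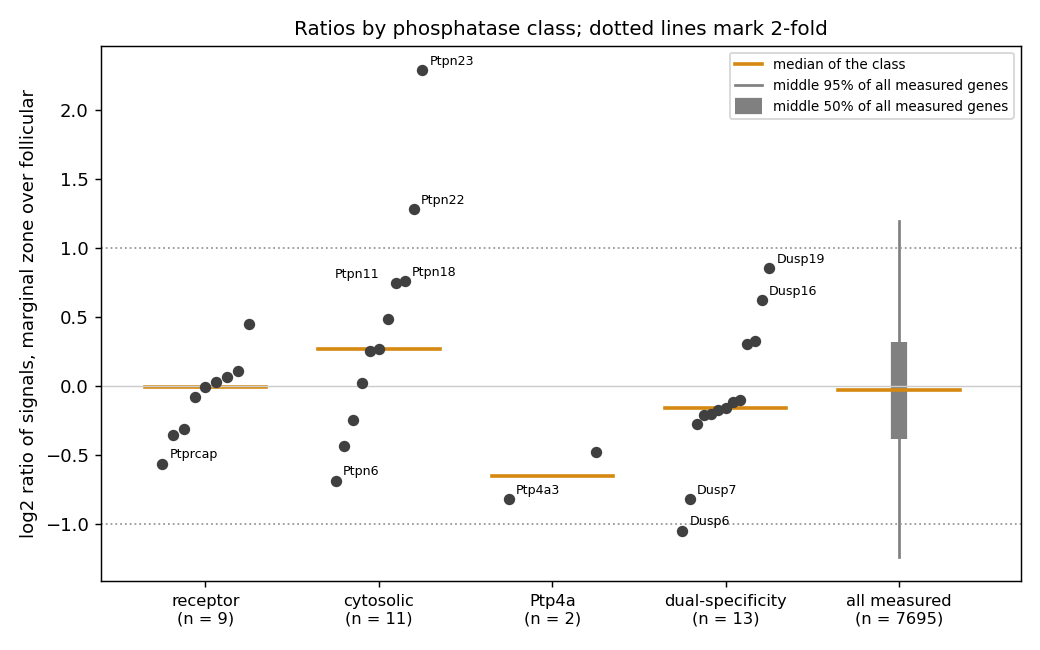
Log2 ratio (marginal zone over follicular) of each measured phosphatase gene (points), by class, with class medians (orange) and, in grey, the middle 50% (thick) and the wider central range from -1.24 to 1.19 (thin) of all 7695 measured genes. The cytosolic class spreads from -0.68 to 2.29, while the receptor class lies between -0.56 and 0.45, the upper end being a lower bound for Ptprm.

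In the cytosolic class, Ptpn23 had the largest difference of the set. It encodes HD-PTP, a Bro1-domain protein that sorts ubiquitinated receptors on endosomes with the ESCRT machinery. Its signal was 84.8 in marginal zone and 17.4 in follicular cells, 4.88-fold higher in marginal zone cells (log2 ratio 2.29). Of all measured genes, 0.260% had a ratio as high or higher. The follicular signal was close to the floor, only 1 probe set was available, and with the floor raised to the 75th percentile (45.7) the log2 ratio was 0.89, under 2-fold.

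Ptpn22 encodes PEP, the phosphatase that works with the kinase Csk to dephosphorylate Src family kinases in lymphocytes. Its signal was 156.4 in marginal zone and 64.3 in follicular cells, 2.43-fold higher in marginal zone cells (log2 ratio 1.28), and 1.91% of measured genes had a ratio as high or higher. Both signals were well over the floor, and the log2 ratio stayed between 1.14 and 1.34 under every alternative tried. It too had a single probe set.

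4 further cytosolic genes were higher in marginal zone cells by less than 2-fold. Ptpn18, a relative of PTP-PEST, had a signal of 341.0 in marginal zone and 201.4 in follicular cells (log2 ratio 0.76). Ptpn11 encodes SHP-2, which promotes signalling through Ras to ERK. It had a signal of 471.2 in marginal zone and 281.5 in follicular cells (log2 ratio 0.74), but its dimmer probe sets, each above the floor on 1 array only, gave 0.37 and -0.13. Ptpn12, which encodes PTP-PEST itself, a regulator of the cytoskeleton and of adhesion, had a signal of 130.1 in marginal zone and 93.0 in follicular cells (log2 ratio 0.48). Its 4 probe sets ran from -0.11 to 0.48, the brighter 3 positive and the lowest one below the floor in marginal zone cells. Ptpn1 encodes PTP1B, an enzyme of the endoplasmic reticulum that acts on insulin and cytokine receptor signalling, and gave 255.1 in marginal zone and 211.8 in follicular cells, a log2 ratio of 0.27 with 0.67 for the other probe set.

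Ptpn6 and Ptpn2 went the other way. Ptpn6 encodes SHP-1, which is recruited by the inhibitory receptors of B cells and lowers antigen receptor signalling. Its signal was 107.4 in marginal zone and 172.6 in follicular cells (log2 ratio -0.68). A second probe set, of the kind that can bind related transcripts, gave 72.9 in marginal zone and 195.5 in follicular cells (log2 ratio -1.42). Both probe sets were thus lower in marginal zone cells, and the mean of their log2 ratios, -1.05, was past 2-fold. Ptpn2 encodes TC-PTP, a nuclear and cytoplasmic enzyme that acts on JAK and STAT proteins. It gave 470.3 in marginal zone and 636.3 in follicular cells (log2 ratio -0.44), with its other measured probe sets at -0.09 and, below the floor in marginal zone cells, -0.89.

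The remaining cytosolic genes were near the floor. Ptpn9, an enzyme of secretory vesicles, had 20.9 in marginal zone and 20.5 in follicular cells. Ptpn14 (15.1 in marginal zone and 1.62 in follicular cells) and Ptpn5 (7.22 in marginal zone and 15.1 in follicular cells) exceeded the floor on 1 array only, so each had to differ in that direction to be measured. Ptpn4, Ptpn13, Ptpn20 and Ptpn21 were not above the floor on either array.

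In the receptor class, Ptprc, the gene of CD45, had a signal of 1987 in marginal zone and 1901 in follicular cells, a log2 ratio of 0.06 that was -0.006 after quantile normalization. B220, the antigen used to enrich both populations, is a form of CD45, so its presence is no finding. Ptprcap, the gene of the CD45-associated protein, was at 68.5 in marginal zone and 101.0 in follicular cells (log2 ratio -0.56), the largest difference among the receptor-class genes above the floor on both arrays. None of those reached 1.5-fold.

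Ptpra, which activates Src family kinases much as CD45 does, had 47.8 in marginal zone and 59.2 in follicular cells (log2 ratio -0.31). Ptprj encodes CD148, which shares with CD45 the task of keeping Src family kinases active in B cells and macrophages. It had 17.5 in marginal zone and 22.4 in follicular cells (log2 ratio -0.36), and its other measured probe set, below the floor in marginal zone cells, gave -0.51. Ptprs, a receptor for proteoglycans, had 32.3 in both populations, and Ptpre was at 20.9 in marginal zone and 22.03 in follicular cells. Ptprv and Ptprd, with log2 ratios of 0.11 and 0.03, were also near the floor, and Ptprm, a homophilic adhesion molecule at 17.3 in marginal zone and 11.2 in follicular cells, exceeded it in marginal zone cells only, a bound of 0.45 that was 0.63 with the floor at the 25th percentile.

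The other 10 receptor-class genes were not above the floor on either array: Ptprb, Ptprf, Ptprg, Ptprk, Ptprn, Ptprn2, Ptpro, Ptprr, Ptpru and Ptprz1. Several of these are known from endothelial, epithelial or neural cells. Over their 17 probe sets, signals reached at most 11.1 in marginal zone and 11.1 in follicular cells. In all, 19 phosphatase genes were not measured, 4 of them cytosolic and 5 dual-specificity (Dusp13, Dusp14, Dusp15, Dusp18 and Dusp26).

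**Figure D2:**
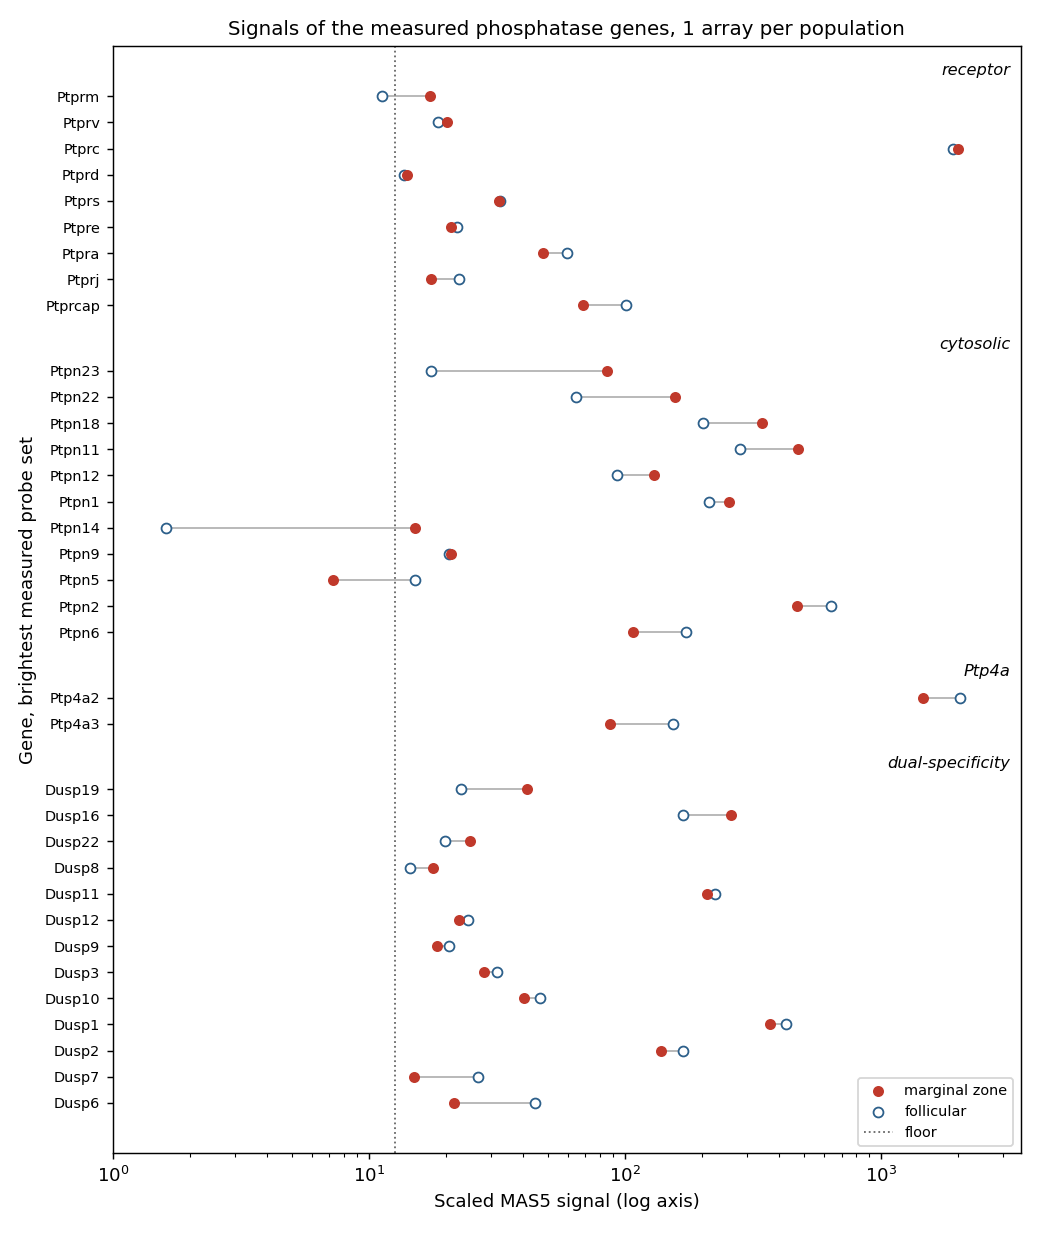
Scaled MAS5 signal (log axis) of the 35 measured phosphatase genes in marginal zone (filled red) and follicular (open blue) B cells, 1 array each, sorted by ratio within each class; the dotted line is the floor of 12.7. Among genes above the floor on both arrays, Ptpn23 and Ptpn22 show the widest gaps with marginal zone higher, and Dusp6 the widest with marginal zone lower.

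Both Ptp4a genes of the set gave lower values in marginal zone cells. Ptp4a2 had 1457 in marginal zone and 2027 in follicular cells (log2 ratio -0.48), and its 4 probe sets, with log2 ratios from -0.72 to -0.31, all pointed the same way. Ptp4a3 had 87.0 in marginal zone and 153.5 in follicular cells (log2 ratio -0.82). Its second probe set was not above the floor.

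Of 10 typical MAP kinase phosphatases listed, 8 were analysed here and the other 2 were not. All 8 were measured, with a median log2 ratio of -0.20. Of these, 6 were higher in follicular cells, as were 52.2% of all measured genes. Dusp6 and Dusp7, which prefer ERK, had the largest differences of the 8. Dusp6, a cytoplasmic ERK phosphatase and a feedback target of ERK, had a signal of 21.5 in marginal zone and 44.4 in follicular cells, 2.07-fold higher in follicular cells (log2 ratio -1.05). This difference only just passed 2-fold: the log2 ratio was -0.99 after scaling to equal medians and -0.74 with a pseudocount, and Dusp6 was not measured with the floor at 45.7. Dusp7, a close relative with the same preference, had 15.04 in marginal zone and 26.6 in follicular cells (log2 ratio -0.82), and its other measured probe set gave -0.83. Dusp9, the third enzyme that prefers ERK, had 18.4 in marginal zone and 20.5 in follicular cells, the smallest difference of the 8 (log2 ratio -0.16).

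The inducible nuclear enzymes differed by less than 1.5-fold. Dusp1, an immediate-early gene that ends p38 and JNK as well as ERK activity, had 369.0 in marginal zone and 426.0 in follicular cells (log2 ratio -0.21). Dusp2, known as PAC-1 and found mainly in blood cells, had 138.5 in marginal zone and 167.8 in follicular cells (log2 ratio -0.28). Among the enzymes that prefer JNK and p38, Dusp16 was higher in marginal zone cells, at 258.0 against 167.5 in follicular cells (log2 ratio 0.62). Dusp10 had 40.4 in marginal zone and 46.4 in follicular cells, and Dusp8 had 17.8 in marginal zone and 14.5 in follicular cells.

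Among the atypical dual-specificity genes, which lack the docking domain for MAP kinases, 5 of 10 were measured and none reached 2-fold. Dusp19 differed most, at 41.5 in marginal zone and 22.9 in follicular cells (log2 ratio 0.85), by the 1 of its 2 probe sets that was measured. Dusp11, a phosphatase of RNA ends, had 209.2 in marginal zone and 224.8 in follicular cells, with log2 ratios of -0.10 and -0.62 for its 2 probe sets. Dusp3, Dusp12 and Dusp22 had signals between 19.8 and 31.6 and log2 ratios between -0.17 and 0.33.

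The nearest thing to a repeat measurement was a second probe set of the same gene on the same arrays. The SD of log2 ratios between probe sets of a gene was 0.43 over 2622 genes with several measured probe sets, and it was 0.53 for genes with a mean signal under 30 and 0.38 for genes over 100. It covers probe behaviour only, not mice, sorts or labelling. Of 12 phosphatase genes with several measured probe sets, 10 had all of them on one side of 0, and the exceptions were Ptpn11 and Ptpn12. Over the whole array, 59.3% of genes with several measured probe sets did so. The 10 include Ptprd (0.03 and 0.03) and Ptpre (-0.08 and -0.12), both near 0. In Ptprj, Dusp3 and Ptpn2, 1 probe set was below the floor in marginal zone cells, which fixed its direction. The same held for 1 probe set of Ptprd, below the floor in follicular cells. The negative values of Ptpn11 and Ptpn12 were also fixed in direction, by a marginal zone signal below the floor. Whether the 12 genes differ from the whole array was not tested. The other 23 measured genes, with Ptpn22, Ptpn23 and Dusp6 among them, rest on 1 measured probe set.

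**Figure D3:**
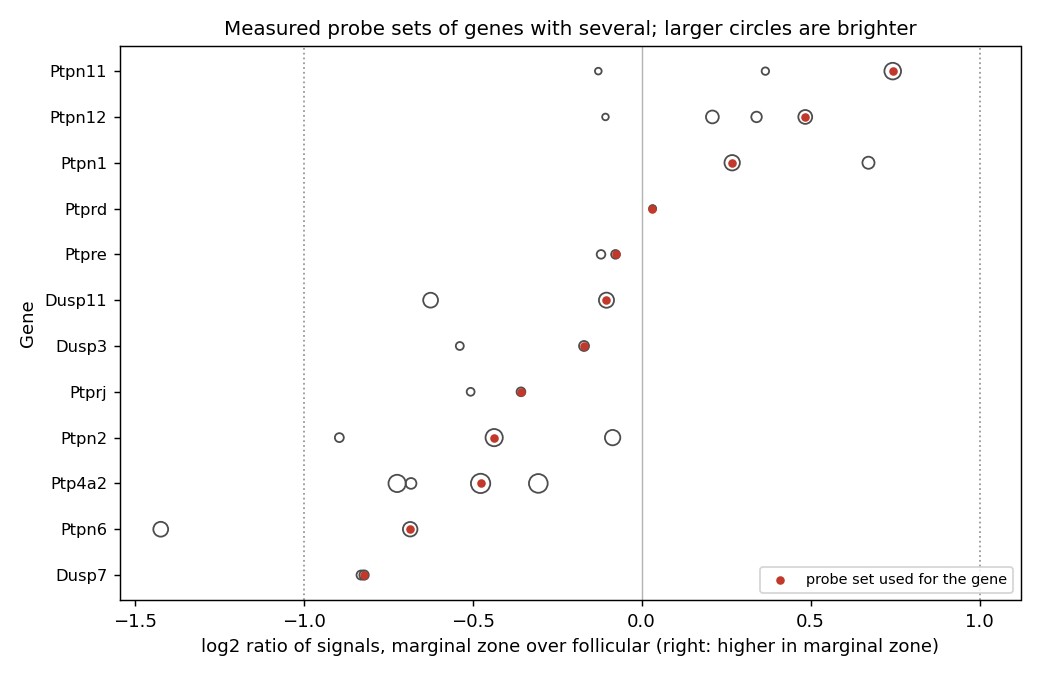
Log2 ratio (marginal zone over follicular) for each measured probe set (circles, larger where brighter) of the 12 phosphatase genes with several, and the one used for the gene (red). Ptpn6 lies below 0 at -0.68 and -1.42, Ptp4a2 between -0.72 and -0.31, and Ptpn11 spreads from -0.13 to 0.74.

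Genes that work with these phosphatases were summarised by list. Among Src family kinases and their regulators, substrates and partners of CD45 and PEP, 6 of 8 annotated genes were measured, with a median of -0.12. Of the 6, 1 passed 2-fold toward marginal zone cells and 1 toward follicular cells. Among all measured genes, 4.39% passed 2-fold toward marginal zone and 4.86% toward follicular cells. Blk, a B cell Src family kinase, had 392.5 in marginal zone and 178.7 in follicular cells (log2 ratio 1.14). Pag1, the membrane adaptor that anchors Csk, had 228.7 in marginal zone and 565.1 in follicular cells (log2 ratio -1.30). Its other measured probe set, below the floor in marginal zone cells, gave a bound of -0.34. Csk itself, the kinase that works with PEP, had 64.0 in marginal zone and 122.6 in follicular cells (log2 ratio -0.94), opposite in direction to Ptpn22. Fgr, at 23.5 in marginal zone and 14.05 in follicular cells, had a log2 ratio of 0.74.

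A list drawn up for inhibitory receptors with the tyrosine motif that recruits SHP-1 had 8 of 10 annotated genes measured. Its median was -0.05. The motif was not checked gene by gene, and the 8 include Fcrl1 (log2 ratio 0.21). None passed 2-fold at the floor used, but 3 of the 8 were lower bounds, and with the floor at the 25th percentile Lair1 was at -1.72 and Pirb at 2.02. Cd22, the main such receptor of B cells, had 1021 in marginal zone and 1323 in follicular cells (log2 ratio -0.38), with 0.17 for its other probe set. Ceacam1 had a log2 ratio of -0.34 at a dim signal. Lair1, below the floor in marginal zone cells, and Cd5, below it in follicular cells, had bounds of -0.60 and 0.49.

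MAP kinases, the substrates of the typical dual-specificity enzymes, had 7 of 9 annotated genes measured, with a median of -0.33. This median is the bound for Mapk12, which was at -1.09 with the floor at the 25th percentile. Mapk7, the gene of ERK5, had 35.9 in marginal zone and 11.9 in follicular cells, a difference of at least 2.84-fold, and Mapk11, a p38 gene, had 3.66 in marginal zone and 25.7 in follicular cells, at least 2.03-fold higher in follicular cells. Mapk6 had a log2 ratio of 0.79 and Mapk9, a JNK gene, one of -0.71. The other measured probe set of Mapk9, below the floor in follicular cells, gave a bound of 0.04. Upstream, 12 of 14 annotated kinases and Ras-pathway genes were measured, with a median of -0.23 and, at the floor used, 1 past 2-fold each way. Of the 12, 3 were bounds, all lower in marginal zone cells. With the floor at the 25th percentile, Map2k6 was at -1.92, Rasgrp1 at -1.10 and Sos1 at -1.09, each past 2-fold toward follicular cells. Map2k3, which activates p38, had 151.4 in marginal zone and 49.6 in follicular cells (log2 ratio 1.61, with 0.86 for its other probe set). Map2k4, which activates JNK, had 38.9 in marginal zone and 113.7 in follicular cells (log2 ratio -1.55, with -1.10 for its other probe set). Rasgrp2 and Sos2, activators of Ras family GTPases, had log2 ratios of -0.75 and -0.74.

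Genes that respond to ERK were mixed, 14 of 18 measured, with a median of -0.13. Myc, the growth regulator, had 196.8 in marginal zone and 78.6 in follicular cells (log2 ratio 1.32), and Fosl1 had 27.8 in marginal zone and 1.21 in follicular cells, a difference of at least 2.20-fold. Spry2, a feedback inhibitor of the pathway like Dusp6, had 18.9 in marginal zone and 33.3 in follicular cells (log2 ratio -0.82). Its other measured probe set, below the floor in marginal zone cells, gave a bound of -0.007. Ier2, an immediate-early gene, had 213.6 in marginal zone and 373.2 in follicular cells (log2 ratio -0.81). No gene of this list passed 2-fold toward follicular cells at the floor used, where Fosl2 is a lower bound of -0.78 (-2.50 with the floor at the 25th percentile).

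Phosphatases of the same superfamily outside the symbol rule had 9 of 15 annotated genes measured and a median of -0.13. Cdc25b, which activates cyclin-dependent kinases, had 18.3 in marginal zone and 59.8 in follicular cells (log2 ratio -1.71). It rests on 1 measured probe set, and its log2 ratio ran from -1.71 to -0.39 over the settings tried. Ptpmt1, a mitochondrial lipid phosphatase, had 73.0 in marginal zone and 27.9 in follicular cells (log2 ratio 1.39). It too rests on 1 measured probe set, with log2 ratios from 0.68 to 1.44 over the settings. Epm2a and Tns1 were below the floor in marginal zone cells, and higher in follicular cells by at least 1.58-fold and 1.29-fold. Members of the set itself reported to lack phosphatase activity, with Ptpn23 uncertain in this regard, had 2 of 4 annotated genes measured: Ptpn23 and Ptprcap, which lay on opposite sides of 0.

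**Figure D4:**
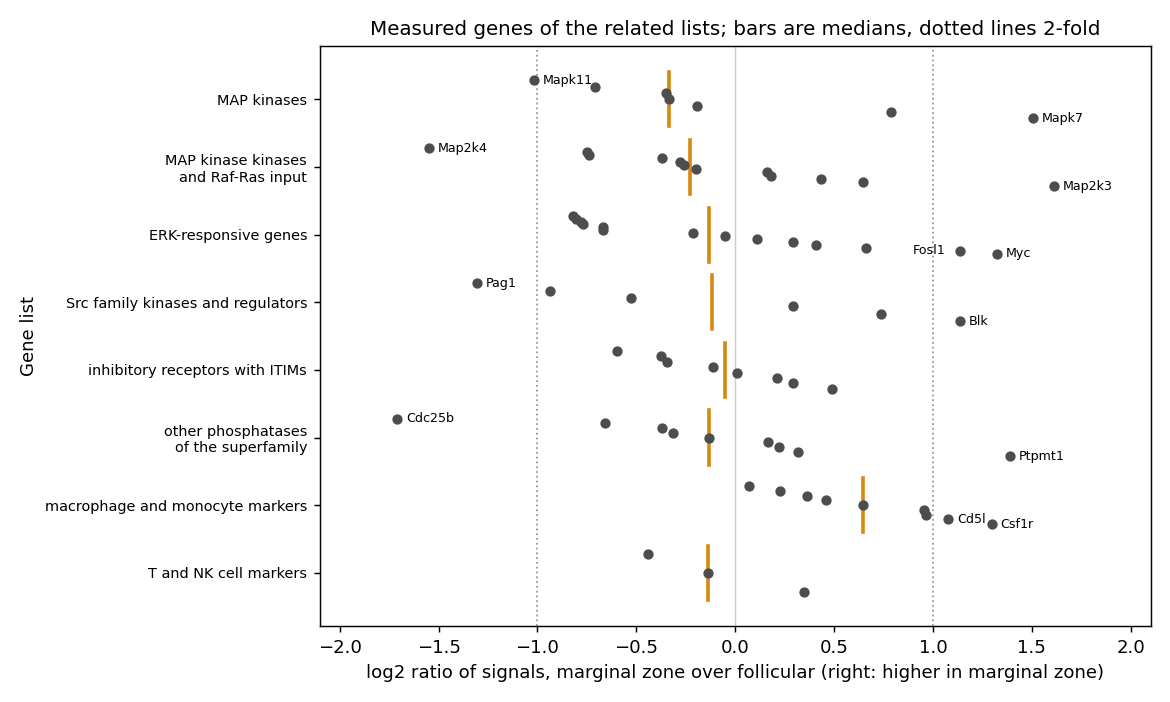
Log2 ratio (marginal zone over follicular) for the measured genes of 8 lists (points), with list medians (orange) and 2-fold marked by dotted lines. The medians of the upper 6 lists lie between -0.33 and -0.05, and the macrophage and monocyte list centres at 0.64.

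Markers of other cells were mostly at low signals. Of 14 macrophage and monocyte markers, 9 were measured, at a median log2 ratio of 0.64, which is itself a bound. Of these, 5 exceeded the floor in marginal zone cells only and so had to come out higher there. The other 4, Csf1r, Lyz2, Mrc1 and Adgre1, exceeded it on both arrays and were higher in marginal zone cells by log2 ratios of 1.30, 0.96, 0.36 and 0.07. Summed over the 14 genes, signals were 234.5 in marginal zone and 117.2 in follicular cells. Csf1r, the receptor for the macrophage growth factor, had 42.5 in marginal zone and 17.3 in follicular cells. All 3 of its probe sets were higher in marginal zone cells. The dimmer ones were below the floor in follicular cells, which fixed their direction. C1qa, C1qc, Cd163, Itgam and Marco were not above the floor on either array. The part of such cells in the phosphatase differences was not tested.

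T and NK cell markers were measured for 3 of 11 annotated genes, at a median of -0.14 and summed signals of 50.2 in marginal zone and 64.4 in follicular cells. Cd3e, a subunit of the T cell receptor complex, had 1.29 in marginal zone and 17.2 in follicular cells. Cd3e and Cd4 exceeded the floor in follicular cells only and so had to come out higher there. Gzma, above the floor on both arrays, was higher in marginal zone cells, at 20.7 against 16.3 in follicular cells (log2 ratio 0.35). Cd3d, Cd3g, Cd247 and Cd8a were not above the floor on either array. The part of T cells in the phosphatase differences was not tested. The other lists had 3 measured genes each, 2 or 3 of them bounds, and their signals were summed over all annotated genes. Neutrophil markers had a median of 0.18 (summed signals 75.5 in marginal zone and 57.4 in follicular cells), dendritic cell markers 0.03 (67.8 in marginal zone and 51.0 in follicular cells), erythroid and platelet markers -0.24 (48.1 in marginal zone and 63.1 in follicular cells) and stromal and endothelial markers -0.02 (54.1 in marginal zone and 40.7 in follicular cells).

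The genes behind the sort gates went with the labels. Cr2, the gene of CD21, had 889.9 in marginal zone and 277.9 in follicular cells, and Fcer2a, the gene of CD23, had 89.6 in marginal zone and 726.8 in follicular cells. All 8 annotated B cell markers were measured, 3 higher in marginal zone and 5 higher in follicular cells, at a median of -0.35. After the gate genes, the largest differences were in the antigen receptor subunits Cd79a, at 115.6 in marginal zone and 196.7 in follicular cells, and Cd79b, at 545.9 in marginal zone and 1040 in follicular cells, while Blnk and Ms4a1 had log2 ratios of 0.14 and 0.10.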

How the data were processed

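Total RNA of sorted marginal zone and follicular B cells was measured on 1 array each. Per the submitters' processing notes the deposited intensities are MAS5 signals, 1 linear value per probe set; no source used here gives the MAS5 version, its scaling target, detection calls or a genome build. Over 22626 probe sets the authors' values spanned 0 to 8203.3 in marginal zone and 0.1 to 8520.6 in follicular cells. Background and depth cannot be recomputed from them, and the number of arrays limits the precision.

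Each array was scaled to 1 common 2% trimmed mean (factors 0.990 for marginal zone and 1.01 for follicular cells), floored at the median of all values and taken to log2. Names came from the platform annotation: 20380 probe sets had 1 gene, 691 several and 1555 were not listed. RefSeq (GRCm38.p6) held all 54 Entrez identifiers of the set, with 0 symbols to update, and promoter sequences for 43 of the 54. Left out were 4 probe sets shared by a phosphatase and another gene.

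Genes were described at 2-fold and 1.5-fold, with no test. Values in full were given for genes past 2-fold and for those of each class with the 4 largest ratios or the 4 brightest probe sets; of each related list, up to 4 with the largest ratios were named, and others beyond that were named after their values were seen. Members and lists were chosen with earlier results of these data known. The steps were tested on simulated data. Alternatives were 4 scalings, 2 floors, a pseudocount, 2 probe set rules, inclusion of genes below the floor and 2 thresholds. Python 3.11.15, numpy 2.4.6, pandas 2.3.3, statsmodels 0.14.6 and matplotlib 3.10.9 were used.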

Additional observations from a re-analysis of the deposited data

How the results depend on the processing

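No paired analysis was possible because each population has 1 array. Of the class medians, those of the cytosolic (0.03 to 0.61), dual-specificity (-0.20 to -0.05), Ptp4a (-0.68 to -0.60) and typical MAP kinase phosphatase genes (-0.20 to -0.11) kept their sign under the 10 alternatives that apply to them, and the receptor median ran from -0.31 to 0.05. No phosphatase gene past 2-fold changed direction. Of 333 values of single phosphatase genes under alternatives, 5 moved by more than the probe set SD of 0.43, in Ptpn5, Ptpn14 and Ptpn23. This count does not measure robustness, because many of the values could not move. For the 23 genes with 1 measured probe set, the probe set rules and the inclusion rule return the main value. The scalings moved the median of all measured genes from -0.03 to at most 0.02. Genes not measured with the floor at the 75th percentile, Dusp6 among them, have no value there and are not counted. The count of phosphatase genes past 2-fold toward marginal zone cells, 2, was 7 with the floor at the 25th percentile (3.84), 1 with the floor at the 75th percentile, 6 at 1.5-fold and 1 at 3-fold. The count toward follicular cells, 1, was 7 with the 25th-percentile floor, 0 with the 75th-percentile floor, 0 after scaling to equal medians, 0 with a pseudocount, 2 with the mean of probe sets, 4 at 1.5-fold and 0 at 3-fold. With the lower floor the counts over all genes were 1277 higher in marginal zone and 1389 higher in follicular cells, of 11035 measured. In the same order they were 338 and 374 of 7695 in the main setting and 125 and 143 of 3907 with the higher floor. Scaling to equal medians gave 381 and 324 of 7678. A pseudocount gave 264 and 312 of 7695, and the mean of probe sets 296 and 325 of 7695. At 1.5-fold they were 1047 and 1218 of 7695. The floor also changed how many phosphatase genes were measured, so their counts at different floors are not comparable as shares. The medians of the ERK-responsive (-0.21 to 0.04), Ras-pathway (-0.37 to 0.01), ITIM receptor (-0.11 to 0.002) and other-phosphatase lists (-0.13 to 0.22) crossed 0. Lists of few genes moved further: members reported to lack phosphatase activity, with a median of 0.86 over Ptpn23 and Ptprcap, were at -0.37 with the lower floor, 0.16 with the higher floor and 0 with genes below the floor included. T and NK cell markers were at -0.86 with a pseudocount, and erythroid and platelet markers at 0.21 with the lower floor. Signals near the floor limit every ratio of dim genes, and no value here has replicate error.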
